A study of Mus musculus with 6 samples.

Results

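The comparison is of the injured shin muscle of the mouse (the tibialis anterior) on day 3 against day 1 after injury, taken over all captured cells at once. It uses 4 of the 6 libraries of the series: day 1 at ZT4 and ZT16 and day 3 at ZT4 and ZT16, where ZT is zeitgeber time, hours counted from lights on. Barcodes, each standing for 1 captured cell, were kept with at least 500 UMIs (counted transcript molecules), at least 200 genes and at most 10% of UMIs from mitochondrial genes. This kept 39877 of the 41284 barcodes of these libraries, out of 64032 kept barcodes in the whole series. Their UMIs were summed per library and scaled to the library total (CPM). The kept barcodes were then divided by Ptprc, the gene of the leukocyte surface protein CD45, into those with at least 1 Ptprc UMI and those with none.

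All mice were wildtype, and the muscles were injured with cardiotoxin, a snake venom toxin that destroys muscle fibres and spares the stem cells. Mononucleated cells of the muscles of both hindlimbs were sorted with dead cells excluded by propidium iodide, so the fibres themselves were not captured, and a library was made from each day and time with the 10x Genomics 3′ kit v3.1. Uninjured muscle (day 0, 1 library at each time) serves as reference and enters the test only in 1 alternative fit of all 6 libraries. The labels give no sex, age, strain or number of animals, and nothing says that the 2 libraries of a day come from separate animals. They also differ in collection time, so the p-values below measure the spread between a ZT4 and a ZT16 library.

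After such an injury, neutrophils enter the muscle first, followed by blood monocytes that turn into macrophages and clear the dead fibres. Muscle stem cells, marked by Pax7, divide, switch on Myod1 and then Myog, leave the cell cycle and fuse into new fibres through the fusion proteins Myomaker (Mymk) and Myomixer (Mymx). Fibro-adipogenic cells, the fibroblast-like cells of muscle, lay down the interim collagen matrix on which this happens.

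The 4 libraries held 72324112 to 131112629 kept UMIs. The median was 3905 UMIs a barcode on day 1 at ZT4 and 5879 at ZT16, against 11310.5 and 11266.5 on day 3, so a day 3 barcode was sampled more deeply. Between 20 and 45 barcode sequences were shared by any pair of the 4 libraries, at most 0.41% of the smaller library. Of 16481 genes tested, 5670 (34.4%) were higher and 2392 (14.5%) were lower on day 3 at an adjusted p of at most 0.05, by edgeR's quasi-likelihood test on the UMI sums with Benjamini-Hochberg adjustment. The median gene was higher by 0.25 on the log2 scale. TMM scaling, which moves that median to 0.04, gave 4440 higher (26.9%) and 3558 lower (21.6%), and DESeq2 gave 3817 and 3770. Without the day 3 ZT4 library the counts were 3481 and 1160, and without the day 3 ZT16 library 3744 and 1452, with the lone library assumed to vary like the other day. For 77.3% of all tested genes the libraries of the 2 days did not overlap. In sums over all cells, fewer cells of a type and less RNA per cell cannot be told apart.

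Among genes with a mean of at least 50 CPM on the higher day, those that fell furthest were genes of neutrophils and of the first inflammatory wave, and those that rose furthest were genes of differentiating muscle cells, dividing cells, matrix and macrophages. The 12 leading genes in each direction are drawn with the uninjured muscle beside them. They were taken only from genes that passed the test and whose 2 day 3 libraries lay on one side of both day 1 libraries.

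**Figure D1:**
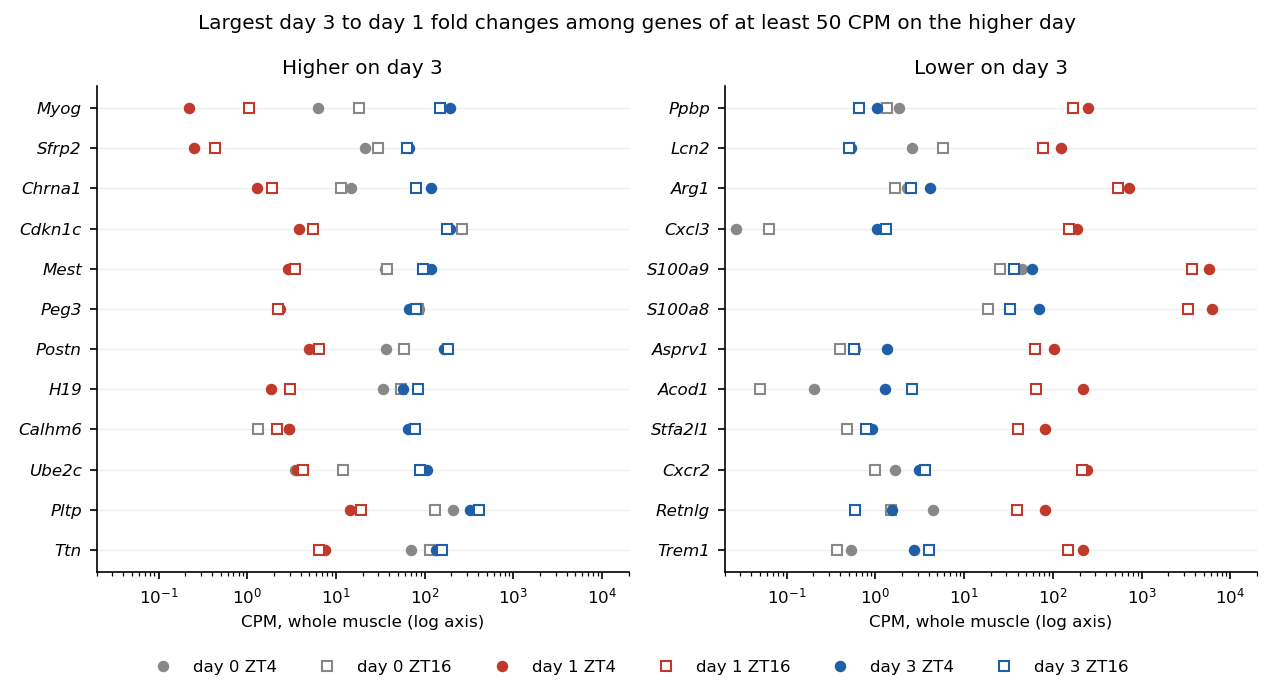
CPM in whole muscle (log axis) of the 12 genes with the largest rise and the 12 with the largest fall from day 1 to day 3 among genes with a mean of at least 50 CPM on the higher day, 1 point per library, filled circles for ZT4 and open squares for ZT16. Genes were drawn only if they passed the test and their day 1 points (red) and day 3 points (blue) did not overlap. S100a8 went from 6252 and 3369 CPM to 68.9 and 32.4, and Myog from 0.221 and 1.04 CPM to 192 and 150.

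Neutrophil genes fell steeply by day 3. All 19 tested genes of a list of 20 neutrophil genes were lower, where 14.5% of all genes were, with a median log2 change of -5.58 (-5.17 with Ngp, which had 0 UMIs in both day 3 libraries, at its bound). The summed level of the list was 16244 and 9956 CPM on day 1 at ZT4 and ZT16 and 469 and 435 CPM on day 3. In barcodes with Ptprc all 19 were lower as well, and the smallest log2 changes were -1.08 for Msrb1, -2.48 for Mmp8 and -2.58 for Csf3r. S100a8 and S100a9 encode the subunits of calprotectin, the most abundant protein of the neutrophil cytosol. S100a8 was at 6252 and 3369 CPM on day 1 and at 68.9 and 32.4 CPM on day 3, a log2 change of -6.57 (SE 0.46, adjusted p = 1.7e-05). S100a9 was at 5734 and 3720 CPM and then at 58.0 and 36.0 CPM. Both genes were higher at ZT4 than at ZT16 on each day, and uninjured muscle held 18.5 to 44.9 CPM of them.

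Most genes by which neutrophils are called fell as well. Cxcr2, the chemokine receptor that brings neutrophils into tissue, was at 240 and 215 CPM on day 1 and at 3.07 and 3.62 CPM on day 3 (log2 change -6.09, SE 0.20, adjusted p = 3.5e-06). Its ligands fell with it: Ppbp from 251 and 170 to 1.05 and 0.646 CPM, and Cxcl3 from 188 and 153 to 1.05 and 1.33 CPM. Ppbp (ENSMUSG00000029372, chr5:90768518-90770063 on the plus strand of GRCm38) had the largest fall of the named genes in whole muscle, a log2 change of -7.94 with an SE of 0.33 and an adjusted p of 3.7e-06, and it is also a platelet gene. Of the 8 tested genes of the list of neutrophil chemokines and receptors, 6 were lower and 0 higher, with a median of -3.04. Cxcl2, a main attractant of neutrophils, went from 5040 and 3379 to 399 and 388 CPM. Cxcr4, which holds neutrophils in the marrow, was at 178 and 260 CPM on day 1 and 215 and 226 CPM on day 3, so the days overlapped (adjusted p = 0.97).

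Other leading falls were in secreted and receptor genes of activated myeloid cells. Lcn2, which encodes the iron-scavenging lipocalin of neutrophil granules, was at 123 and 77.8 CPM on day 1 and at 0.526 and 0.508 CPM on day 3. Trem1, a receptor that amplifies inflammatory signalling, was at 217 and 149 and then at 2.70 and 3.97 CPM. Acod1 makes itaconate, a metabolite of activated macrophages, and differed most between the collection times, at 218 and 64.5 CPM on day 1 and 1.29 and 2.59 CPM on day 3 (log2 change -6.19, SE 0.62, adjusted p = 9.7e-05). Stfa2l1, Retnlg and Asprv1 fell by 6.16, 5.81 and 6.41 on the log2 scale. Stfa2l1 belongs to a family of close copies, so its reads could be divided among them in counting.

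Inflammatory cytokines fell and interferon-induced genes rose over the same days. Of 17 tested genes of the inflammatory cytokine list, 13 were lower and 4 were higher, with a median log2 change of -2.50. Il1b, the gene of interleukin-1 beta, was at 4021 and 3492 CPM on day 1 and at 658 and 604 CPM on day 3, against 66.9 and 66.8 CPM in uninjured muscle (log2 change -2.57, SE 0.16, adjusted p = 1e-05). The day 3 level was thus well below day 1 and still above uninjured muscle. Clec4e, a receptor for debris of dead cells and for mycobacterial lipid, went from 601 and 359 to 16.5 and 17.9 CPM, and Ptgs2, the inducible cyclooxygenase, from 340 and 431 to 41.3 and 50.3 CPM. Il1rn, the gene of the interleukin-1 receptor antagonist, fell as well, from 418 and 203 to 31.1 and 34.4 CPM. The 4 members that were higher were Il6, Il18, Il12b and Il33. Here and below, the exceptions of a list were picked out after their values were seen.

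Chemokines that call monocytes fell in nearly the whole list, with 11 of 12 tested genes lower, 0 higher and a median of -1.52. Ccl6 was at 3203 and 3403 CPM on day 1 and at 270 and 416 CPM on day 3. Ccl2, the main ligand of the monocyte receptor Ccr2, was at 1369 and 2861 CPM and then at 310 and 361 CPM (log2 change -2.66, SE 0.31, adjusted p = 0.00022). On day 1 it was higher at ZT16 than at ZT4, and both day 3 libraries remained above the 168 and 117 CPM of uninjured muscle. Ccl7 and Ccl9 fell by 2.42 and 2.28.

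Interferon-response genes rose in 18 of 19 tested list members, with 0 lower and a median of 2.07, where 34.4% of all genes were higher. Isg15, a ubiquitin-like modifier induced by type I interferon, was at 203 and 145 CPM on day 1 and at 474 and 790 CPM on day 3. Cxcl10, a chemokine for T cells, went from 52.5 and 32.7 to 316 and 391 CPM (log2 change 3.05, SE 0.25, adjusted p = 3.3e-05), with 23.8 and 21.7 CPM in uninjured muscle. The list rose more between the ZT16 libraries (median 2.52) than between the ZT4 libraries (median 1.53), a difference that was not tested. Ifitm3, which blocks entry of viruses, did not pass the test, at 2455 and 1750 CPM on day 1 and 2010 and 2557 CPM on day 3. Calhm6, a channel gene expressed by activated myeloid cells, was at 2.99 and 2.14 CPM on day 1 and at 64.9 and 78.1 CPM on day 3, a log2 change of 4.81 (SE 0.23, adjusted p = 4.7e-06).

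The promoter of Isg15 is shown because the members of the list rose together and its stretch holds the letters of the interferon-stimulated response element. The motif searched was GAAA followed by any 2 bases and GAAA again, on both strands in the 250 bases before the RefSeq start (GRCm38.p6). It was found in 6 of the 15 list genes with a promoter in the table (40%) and in 3.04% of all 27025 promoters. The stretch of Isg15, chr4:156200819-156201068 on the minus strand, holds 3 matches that overlap each other (capitals).
Isg15: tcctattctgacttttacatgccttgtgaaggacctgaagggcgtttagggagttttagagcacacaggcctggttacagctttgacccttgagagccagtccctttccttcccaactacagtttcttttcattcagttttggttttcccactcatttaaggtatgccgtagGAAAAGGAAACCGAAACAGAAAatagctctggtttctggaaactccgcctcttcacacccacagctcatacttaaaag
Of the other named members, Bst2, a protein that tethers budding virus, rose by 1.58 (adjusted p = 0.00064).

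Monocyte genes fell while macrophage genes divided. Of 14 tested monocyte genes, 10 were lower and 1 was higher, with a median of -2.12. Fn1, the fibronectin gene, which inflammatory monocytes and stromal cells both express, was at 1737 and 1578 CPM on day 1 and at 282 and 312 CPM on day 3, below the 1036 and 830 CPM of uninjured muscle. Ccr2 itself was at 624 and 554 and then at 386 and 400 CPM (log2 change -0.59, SE 0.15, adjusted p = 0.01), but its change was 0.41 in the other direction after each barcode was thinned to 1000 UMIs (adjusted p = 0.058). Ifi27l2a, the 1 member that rose, is induced by interferon and went from 930 and 786 to 1531 and 1806 CPM.

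Of 20 tested macrophage genes, 12 were higher and 4 lower, with a median of 1.14. Apoe (ENSMUSG00000002985, chr7:19696109-19699188, minus strand), which carries lipid out of cells, was at 1859 and 3321 CPM on day 1 and at 14751 and 16807 CPM on day 3, a log2 change of 2.61 (SE 0.26, adjusted p = 9.9e-05). Both day 3 libraries were also far above the 2430 and 1799 CPM of uninjured muscle. Pltp, which transfers phospholipid between lipoproteins, rose from 14.5 and 19.1 to 323 and 408 CPM. C1qb, a chain of the complement protein C1q, rose from 492 and 794 to 2028 and 2209 CPM. Mrc1, Ctsd and Pf4 were among the members that fell. Pf4, a chemokine of platelets and macrophages, was at 3420 and 3795 CPM on day 1 and at 948 and 743 CPM on day 3, and Ctsd, a lysosomal protease, was at 2375 and 2361 and then at 1600 and 1744 CPM, a call lost after thinning (adjusted p = 0.21) and without either day 3 library (0.16 and 0.072).

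Arg1, which splits arginine and is often used as a mark of repair macrophages, was a day 1 gene here. It was at 723 and 544 CPM on day 1, at 4.10 and 2.55 CPM on day 3 and at 2.29 and 1.68 CPM in uninjured muscle (log2 change -7.57, SE 0.31, adjusted p = 3.7e-06). Spp1, the osteopontin gene, fell by 1.12 and Chil3, another gene used as a mark of repair macrophages, by 2.42. The list of repair and growth factor genes had 7 of 21 higher and 6 lower, with a median of 0.12. That median is -0.10 under TMM scaling.

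Lipid-handling genes were divided, with 7 of 17 higher, 4 lower and a median of 0.39, close to the 0.25 of all genes. Npc2, which moves cholesterol out of lysosomes, rose by 0.78, and Plin2, which coats lipid droplets, fell from 799 and 626 to 314 and 261 CPM. Iron and haem genes fell in 8 of 14 and rose in 1. Hmox1, haem oxygenase, which opens the haem ring, went from 600 and 583 to 118 and 113 CPM, while the ferritin chain Fth1 went from 15692 and 13566 to 8049 and 8165 CPM.

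Antigen-presentation genes rose in 14 of 16 tested and fell in 1 (Cd80), with a median of 1.34. Cd74, the chaperone of class II molecules, was at 1791 and 1881 CPM on day 1 and at 5860 and 5744 CPM on day 3 (log2 change 1.66, SE 0.14, adjusted p = 4.3e-05). The class II genes H2-Aa, H2-Ab1 and H2-Eb1 rose by 2.06, 1.89 and 2.19 and, like Cd74, ended above both uninjured libraries. B2m, the light chain of class I, rose by 1.30. Dendritic cell genes, a list that shares 6 of these genes, rose in 15 of 18 with 0 lower. Of 20 lymphocyte genes, 17 were higher and 3 lower, among the latter the B cell genes Cd79a and Ms4a1. The killer-cell genes Gzma and Nkg7 were at 4.51 to 11.5 and 2.30 to 5.21 CPM on day 1 and at 43.3 to 49.2 and 22.1 to 31.1 CPM on day 3, and the list as a whole was small, at 119 to 131 CPM on day 1 and 394 to 460 CPM on day 3.

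Genes of dividing cells rose without exception in the list of G2 and M phase. All 21 tested members were higher, with a median log2 change of 3.33. Ube2c (ENSMUSG00000001403, chr2:164769898-164778822, plus strand), which marks cyclins for destruction at the end of mitosis, was at 3.61 and 4.28 CPM on day 1 and at 106 and 88.3 CPM on day 3, against 3.46 and 12 CPM in uninjured muscle. Its log2 change was 4.62 (SE 0.20, adjusted p = 3.9e-06). Birc5, the survivin gene, went from 4.94 and 7.89 to 115 and 82.1 CPM, and Mki67, the Ki-67 gene, from 10.1 and 7.99 to 60.1 and 57.8 CPM. Genes of DNA replication rose less, in 18 of 20 tested with a median of 1.02. Dut, which keeps uracil out of DNA, rose from 15.6 and 27.6 to 122 and 92.2 CPM. Pcna, the sliding clamp of replication, overlapped between the days, at 78.6 and 110 CPM and then 104 and 100 CPM (adjusted p = 0.63).

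The promoter of Top2a, the topoisomerase that untangles mitotic chromosomes, is shown because it holds both of the short motifs known from promoters of this gene group. Top2a was chosen after its values were seen, and rose from 12.5 and 14.0 to 51.7 and 48.6 CPM (log2 change 1.92, SE 0.16, adjusted p = 3.6e-05). CCAAT was found in 16 of the 18 G2 and M phase genes with a promoter in the RefSeq table (88.9%), in 12 of 17 replication genes (70.6%) and in 34.5% of all 27025 promoters. TTTGAA, the letters of the cell-cycle homology region, was found in 7 of 18 (38.9%), 2 of 17 (11.8%) and 16.3% of all. Both strands of the 250 bases before the start were searched. The stretch of Top2a, chr11:99024190-99024439 on the minus strand of GRCm38.p6, holds 6 matches of CCAAT and 2 of TTTGAA (capitals, either strand).
Top2a: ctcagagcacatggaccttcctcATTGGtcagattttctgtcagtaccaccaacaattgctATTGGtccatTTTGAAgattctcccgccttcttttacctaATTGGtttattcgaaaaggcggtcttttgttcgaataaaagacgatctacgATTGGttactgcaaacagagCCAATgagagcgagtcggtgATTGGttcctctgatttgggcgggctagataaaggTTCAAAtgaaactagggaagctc
A match describes letters in this window and was not tested for any factor.

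Muscle differentiation and fusion genes were among the largest rises in the tissue. Of 25 tested genes of that list, 21 were higher and 2 lower, with a median of 3.48. Myog (ENSMUSG00000026459, chr1:134289989-134292548, plus strand), the transcription factor of terminal differentiation, was at 0.221 and 1.04 CPM on day 1 and at 192 and 150 CPM on day 3, a log2 change of 8.02 (SE 0.53, adjusted p = 1.4e-05). Uninjured muscle was in between, at 6.29 and 18.3 CPM. Mymk and Mymx had 0 UMIs in both day 1 libraries. On day 3 Mymk had 4377 UMIs at ZT4 and 2741 at ZT16 (33.4 and 25.3 CPM), and Mymx had 5850 and 3922 (44.6 and 36.2 CPM). Against a floor of 3 UMIs in the day 1 library of the same collection time, Mymk was at least 805-fold and Mymx at least 1076-fold higher at ZT4, the smaller of the bounds at the 2 times. The median of the list was 3.48 with both genes at these bounds as well.

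Further leading genes rose over the same days, and which cells held them in whole muscle was not tested. Chrna1, the acetylcholine receptor subunit that young myotubes make, was at 1.27 and 1.90 CPM and then at 117 and 79.9 CPM. Cdkn1c, an inhibitor of the cell cycle, was at 3.79 and 5.55 CPM on day 1 and at 191 and 177 CPM on day 3, still below the 260 and 265 CPM of uninjured muscle (log2 change 5.30, SE 0.23, adjusted p = 4.1e-06). Cdkn1c, H19, Mest and Peg3 are imprinted genes, and the last 3 rose by 4.84, 5.06 and 5.0 on the log2 scale. H19, a long noncoding RNA, was at 1.87 and 3.05 and then at 57.5 and 84.4 CPM. Peg3 was at 2.35 and 2.24 CPM and then at 67.2 and 80.3 CPM, back to near the 86.5 and 84.4 CPM of uninjured muscle.

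Among 18 genes by which muscle stem cells and myoblasts are known, 15 were higher and 1 lower (Notch1), with a median of 3.16. Des, the muscle intermediate filament gene, rose from 45.2 and 42.1 to 198 and 167 CPM. Genes of the mature fibre went the other way: 10 of 16 were lower and 2 higher, with a median of -0.75. Acta1, the actin of skeletal fibres, and Tnnc2, the troponin C of fast fibres, were at 510 and 562 CPM and at 269 and 313 CPM on day 1, and at 296 and 352 CPM and at 127 and 165 CPM on day 3. After thinning to 1000 UMIs a barcode neither fall passed the test (adjusted p = 0.42 and 0.16). The 2 that were higher were Ttn and Actn3. Ttn, the titin gene, rose from 7.59 and 6.45 to 135 and 158 CPM, a log2 change of 4.38 (SE 0.19, adjusted p = 3.9e-06), above the 69.6 and 115 CPM of uninjured muscle.

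Matrix genes rose in 20 of 26 tested and fell in 4, with a median of 2.32. Col1a2 and Col1a1, the chains of type I collagen, were at 71.2 and 61.6 CPM and at 46.3 and 40.2 CPM on day 1, and at 950 and 904 CPM and at 730 and 714 CPM on day 3. Their log2 changes were 3.80 (SE 0.17) and 4.06 (SE 0.17), with adjusted p of 4.1e-06 and 3.7e-06. In uninjured muscle both were higher still, Col1a2 at 4161 and 4481 CPM. Postn, a matrix protein of healing tissue, was at 5.02 and 6.52 CPM on day 1 and at 167 and 183 CPM on day 3, and it passed the 36.4 and 58.2 CPM of uninjured muscle. Sfrp2, a secreted binder of Wnt proteins, rose from 0.249 and 0.436 to 65.8 and 62.9 CPM. The 4 matrix members that fell were Fn1, Thbs1 and both chains of basement membrane collagen IV, Col4a1 and Col4a2. Thbs1, the thrombospondin of platelets and myeloid cells, went from 2049 and 1379 to 225 and 278 CPM. Fibro-adipogenic genes rose in 12 of 16, with 1 lower (Pi16) and a median of 1.64. Gsn, an actin-severing protein that was at 12954 and 9183 CPM in uninjured muscle, was at 306 and 308 CPM on day 1 and 309 and 243 CPM on day 3.

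Endothelial genes fell in 10 of 16 tested and rose in 0, with a median of -1.01. Egfl7, a secreted protein of vessels, was at 24.1 and 36.1 CPM on day 1 and at 13.1 and 10.5 CPM on day 3, a fall that did not pass the test after thinning (adjusted p = 0.17). Fabp4, the fatty acid carrier of muscle capillaries, overlapped between the days at 149 and 283 CPM and then 188 and 162 CPM, far below the 3070 and 3048 CPM of uninjured muscle.

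Glycolysis and hypoxia genes fell in 11 of 23 and rose in 0, with a median of -0.48 (16 of 23 under TMM scaling). Pkm, pyruvate kinase, went from 924 and 779 to 440 and 403 CPM. Ribosomal protein genes were higher in 16 of 24 with 0 lower, but in 7 of 24 under TMM scaling. Oxidative phosphorylation genes were higher in 5 of 24 and lower in 0, and 0 of 24 passed in either direction under TMM scaling, against 48.5% of all genes.

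**Figure D2:**
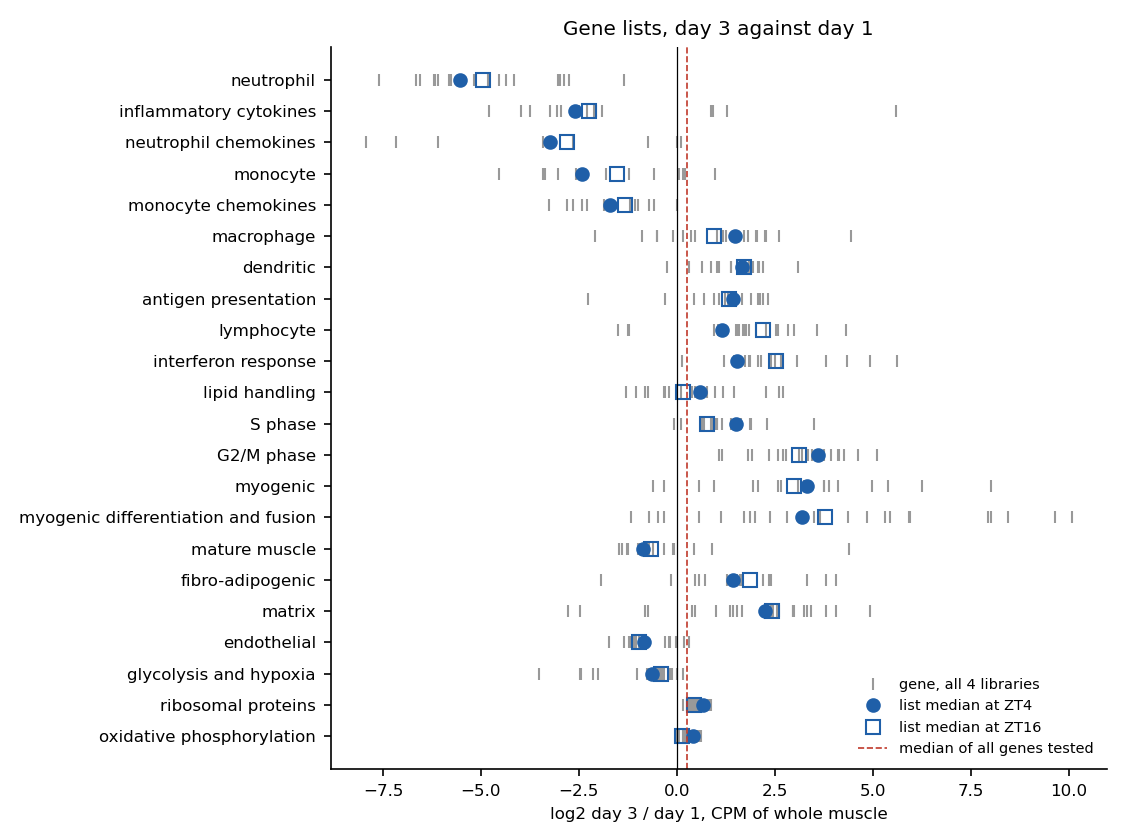
log2 change from day 1 to day 3 in whole muscle for 22 gene lists, with a tick for each tested gene, the list median between the ZT4 libraries (filled circle) and between the ZT16 libraries (open square), and the median of all genes (dashed line, 0.25); genes with 0 UMIs on 1 day stand at their bound. For every list drawn the circle and the square lie on the same side of 0.

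The other lists are given as counts, to be read beside the 34.4% of all genes that were higher and the 14.5% that were lower. Lysosome genes had 11 higher and 3 lower of 21, complement genes 8 and 4 of 15, matrix proteases and their inhibitors 5 and 7 of 16, immediate early genes 1 and 6 of 18 (0 and 11 under TMM scaling), heat shock genes 4 and 1 of 12 (2 and 3 under TMM scaling), and glucocorticoid-response genes 5 and 3 of 16. Genes of the circadian clock had 9 higher and 3 lower of 19. Mural cell genes had 4 and 3 of 12, tendon cell genes 4 and 0 of 9, glial genes 4 and 1 of 9, mast cell genes 1 and 0 of 8, and red cell genes 0 and 4 of 5.

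Barcodes with at least 1 Ptprc UMI held a lower share of the UMIs in both day 3 libraries, and a share of the barcodes that was just below that of day 1. On day 1 they were 83.4% of barcodes at ZT4 (exact Clopper-Pearson 95% interval 82.6 to 84.0) and 78.7% at ZT16 (77.9 to 79.5), and on day 3 they were 76.7% (75.8 to 77.5) and 78.4% (77.5 to 79.3). The intervals cover counting error only. These barcodes held 87.4% and 84.3% of UMIs on day 1 and 69.9% and 73.0% on day 3. The difference was -3.48 percentage points of barcodes and -14.4 points of UMIs, each with an exact two-sided permutation p of 0.333, the smallest that 2 against 2 libraries allow.

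The share depends on depth and on what counts as a leukocyte. After each barcode was thinned to 1000 UMIs, with 199 to 353 shallower barcodes per library left out, the share was 47.9% and 38.4% on day 1 and 31.5% and 32.2% on day 3. Ptprc-zero barcodes were not all non-immune. Each barcode was also assigned by its UMIs of 10 leukocyte genes (Ptprc, Tyrobp, Fcer1g and others) against 16 structural genes (collagens, Cdh5, Des and others). A barcode with equal UMIs of both lists, or with none of either, was counted with the leukocytes. Structural genes prevailed in 41.0% and 54.3% of the Ptprc-zero barcodes of day 1 and in 75.9% and 75.9% of those of day 3, so by these genes much of the day 1 set was counted as leukocytes. Conversely, of the barcodes in which structural genes prevailed, 6.48% and 5.18% had a Ptprc UMI on day 1 (median depth 2934.5 and 3266.5 UMIs) and 9.54% and 10.0% on day 3 (18747 and 16885 UMIs). By the gene lists, leukocytes made up 92.7% and 87.8% of barcodes on day 1 and 80.4% and 81.8% on day 3, a difference of -9.14 points.

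**Figure D3:**
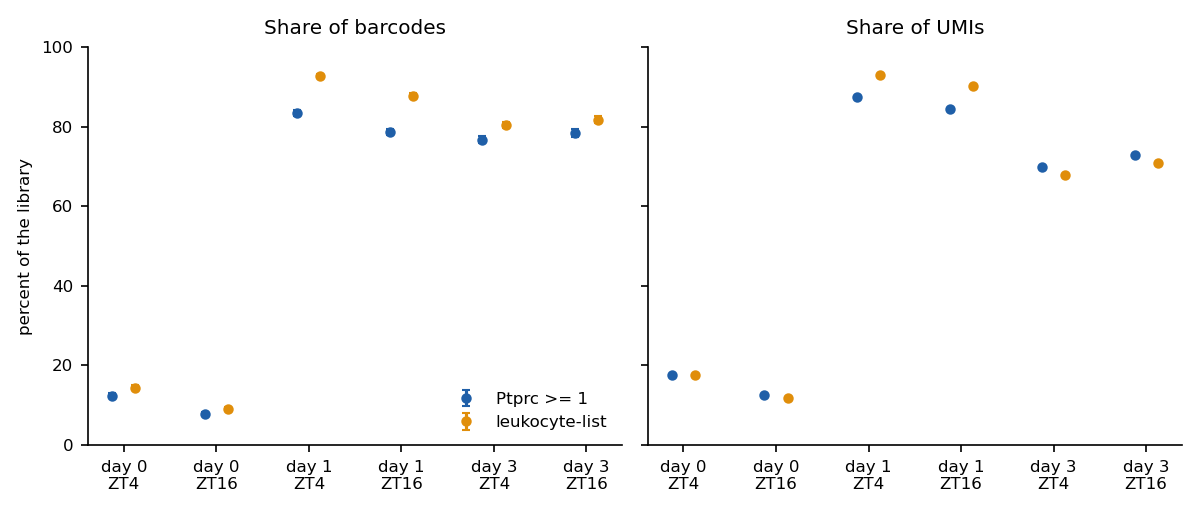
Percent of barcodes (left, with 95% binomial intervals) and of UMIs (right) that belonged to barcodes with at least 1 Ptprc UMI (blue) or in which leukocyte genes prevailed or tied with structural genes (orange), 1 point per library. The share of UMIs in the Ptprc set was 87.4% and 84.3% on day 1 and 69.9% and 73.0% on day 3, against under 20% in uninjured muscle.

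Within barcodes with Ptprc, 4832 of 15343 genes (31.5%) were higher and 2472 (16.1%) lower on day 3. TMM scaling gave 4169 and 3276, and DESeq2 3474 and 3523. Without the day 3 ZT4 library the counts were 2743 and 1074, and without the day 3 ZT16 library 2994 and 1199. Among genes with a mean of at least 50 CPM of the set on the higher day, the leading rises were Iigp1, Calhm6, Ifit2, Col1a1, Pltp and Gpr34. Below that level muscle genes rose further: Myog was at 0.0791 and 0.0246 CPM of the set on day 1 and at 45.7 and 35.1 CPM on day 3 (log2 change 9.65), and Sfrp2 rose by 9.07 and Cdh15 by 6.16. The floor of 3 UMIs is 0.0475 and 0.0369 CPM of this set on day 1 at ZT4 and ZT16. The day 1 levels of Myog and Sfrp2 were near that floor, so the sizes of their rises are imprecise. Of the 16 tested genes of muscle stem cells and myoblasts, 14 were higher in this set and 2 lower. Ifit2, an interferon-induced RNA-binding protein, was at 9.18 and 4.04 CPM of the set on day 1 and at 148 and 224 CPM on day 3, a log2 change of 4.82 (SE 0.41, adjusted p = 9.9e-05). Iigp1, an interferon-induced GTPase that attacks vacuoles of parasites, was at 1.12 and 1.35 CPM and then at 32.5 and 70.5 CPM. Gpr34, a lipid receptor of macrophages and microglia, was at 1.17 and 3.84 CPM and then at 81.5 and 48.5 CPM. Col1a1 was at 6.27 and 7.76 CPM of the set on day 1 and at 187 and 206 CPM on day 3, a collagen that leukocytes are not known for. Structural genes prevailed in 0.568% and 0.803% of these barcodes on day 1 and in 2.43% and 2.33% on day 3. Their part in the levels of Col1a1 and of the muscle genes was not tested.

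At the same minimum level, the leading falls in this set were Ppbp, Lcn2, Cstdc4, Arg1, Cxcl3 and Lrg1. Lrg1, a secreted glycoprotein of neutrophil granules and of vessels, was at 140 and 110 CPM of the set on day 1 and at 1.33 and 1.02 CPM on day 3 (log2 change -6.72, SE 0.23, adjusted p = 8.6e-06). Cstdc4 was at 78.0 and 26.2 CPM and then at 0.491 and 0.177 CPM, and like Stfa2l1 it is 1 of several close copies. The lists moved as in the whole tissue: neutrophil genes 0 higher and 19 lower of 19, interferon genes 18 and 0 of 19, G2 and M phase genes 21 and 0 of 21, antigen-presentation genes 14 and 1 of 16, and macrophage genes 13 and 2 of 20.

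Within Ptprc-zero barcodes 3250 of 14607 genes (22.2%) were higher and 3200 (21.9%) lower. At a mean of at least 50 CPM of the set on the higher day, Mymx, Mymk, Myog, Sfrp2, Pnmal2 and Cdh15 led the rises. Cdh15, M-cadherin, the adhesion protein of muscle stem cells, was at 4.16 and 2.72 CPM of the set on day 1 and at 133 and 136 CPM on day 3 (log2 change 5.33, SE 0.25, adjusted p = 1.6e-06). Pnmal2, a gene of the paraneoplastic antigen family, was at 1.75 and 0.862 CPM and then at 52.1 and 54.7 CPM. At the same level Arg1, S100a9, S100a8, Acod1, Ppbp and Trem1 led the falls, most of them known from myeloid cells. Below it, Cstdc4, Stfa2l1 and Retnlg fell by 10.2, 8.79 and 7.97 on the log2 scale. The floor of 3 UMIs is 0.0760 and 0.103 CPM of this set on day 3 at ZT4 and ZT16. The day 3 levels of these genes were near or under that floor, so the sizes of their falls are imprecise. S100a9 was at 2732 and 1483 CPM of this set on day 1 and at 9.73 and 0.649 CPM on day 3. The part of the leukocytes in the day 1 set in these falls was not tested. Between the sets divided by Ptprc, the day effect was higher in the Ptprc set for 28.3% of 16597 genes and lower for 13.8%.

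Because of that content, cells were compared further in the barcodes in which structural genes prevailed, 802 and 1370 on day 1 and 1856 and 1489 on day 3. The genes used to choose these barcodes (among them Col1a1, Col1a2, Col3a1, Col4a1, Col4a2, Cdh5, Des and Cdh15) are given in them as description, and counts of list members leave them out. Of 14374 genes tested, 1960 (13.6%) were higher and 2983 (20.8%) lower on day 3, by the same test. The median log2 change of all these genes was -0.084. Leukocyte genes were still found in this set. The neutrophil list summed to 1388 and 961 CPM on day 1 and to 104 and 126 CPM on day 3, with 17 of 17 tested genes lower. Of 20 macrophage genes, 9 were higher and 3 lower. How much of these transcripts was carried over from leukocytes was not tested.

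In structural barcodes endothelial and mature fibre genes fell and genes of muscle differentiation rose. All 14 tested endothelial genes that did not choose the barcodes were lower, with a median of -2.79. Fabp4 was at 1766 and 2502 CPM of the set on day 1 and at 442 and 371 CPM on day 3, and Egfl7 was at 305 and 340 CPM and then at 37.7 and 31.7 CPM (log2 changes -2.39 and -3.22, SE 0.18 and 0.17). On day 1 Egfl7 was still at the level of uninjured structural barcodes, 313 and 279 CPM. Mature fibre genes fell in 14 of 16, with a median of -2.49. Acta1 was at 5737 and 4384 CPM of the set on day 1 and at 814 and 1057 CPM on day 3. Fibres were not captured, and how much of these transcripts was free RNA was not tested.

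Myogenic differentiation and fusion genes rose in 15 of 24 tested in this set and fell in 5. Myog was at 1.93 and 10.3 CPM on day 1 and at 561 and 487 CPM on day 3. Cdkn1c was at 34.6 and 43.3 CPM and then at 559 and 579 CPM, which here was above the 310 and 292 CPM of uninjured structural barcodes. Mef2c, a partner factor of Myog that vessels also express, fell by 1.53 in this set and rose by 0.57 in the whole tissue, a call that was lost under TMM scaling (log2 change 0.36, adjusted p = 0.078).

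Genes of the phases of the cell cycle moved differently in this set. Of 21 genes of G2 and M phase, 19 were higher and 0 lower, with a median of 2.07. Ube2c was at 17.4 and 26.2 CPM of the set on day 1 and at 204 and 204 CPM on day 3, a log2 change of 3.21 (SE 0.21, adjusted p = 2e-06). Of 20 replication genes, 3 were higher and 7 lower, with a median of -0.19. Mcm3, a subunit of the replicative helicase, was at 98.1 and 93.3 CPM on day 1 and at 68.1 and 64.7 CPM on day 3, against 7.69 and 11.5 CPM in uninjured structural barcodes, so both injured days were above it. In leukocyte barcodes Mcm3 went the other way, from 17.4 and 23.3 to 33.1 and 31.8 CPM. The difference between the 2 day effects on Mcm3 was 1.21 on the log2 scale (SE 0.17, adjusted p = 0.00052, edgeR with the library as a block). This rests on the division by gene lists. In Ptprc-zero barcodes 9 of the 20 replication genes were higher and 0 lower, with a median of 0.57, Mcm3 was at 55.3 and 55.8 CPM and then at 66.4 and 63.9 CPM (adjusted p = 0.29), and its difference from Ptprc barcodes was 0.41 (adjusted p = 0.051).

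Of the 19 tested matrix genes that did not choose the structural barcodes, 9 were higher and 4 lower, with a median of 0.46. The rise of fibro-adipogenic genes in whole muscle was not seen in this set. Of the 13 tested that did not choose the barcodes, 0 were higher and 5 lower, with a median of -0.37. Postn was at 68.4 and 66.7 CPM of the set on day 1 and at 513 and 622 CPM on day 3, a log2 change of 3.07 (SE 0.16, adjusted p = 8.7e-07). Col4a1 was at 1342 and 842 CPM on day 1, the level of uninjured structural barcodes (1421 and 1137 CPM), and at 189 and 168 CPM on day 3. Fn1 moved in opposite directions in structural and leukocyte barcodes, but not in the sets divided by Ptprc. In structural barcodes it rose from 243 and 226 to 532 and 594 CPM (log2 change 1.26, SE 0.14, adjusted p = 7.5e-05), and in leukocyte barcodes it fell from 1852 and 1723 to 163 and 196 CPM (-3.32, SE 0.17, adjusted p = 1.5e-05). The difference was -4.59 (SE 0.11, adjusted p = 5.9e-08). By Ptprc it fell in both sets, by 3.05 with Ptprc and by 0.98 without (adjusted p = 2.5e-05 and 0.0014).

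**Figure D4:**
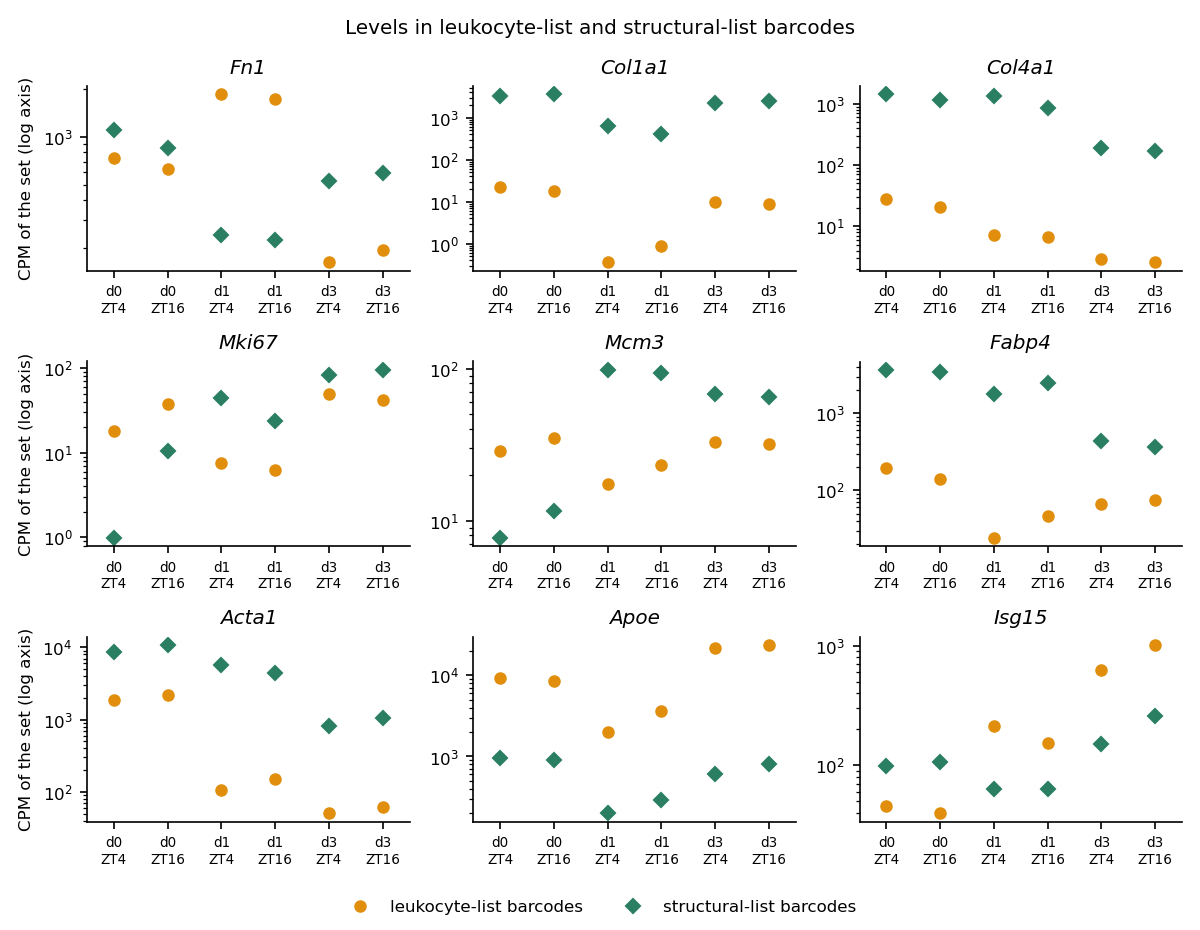
CPM (log axes) of 9 genes in barcodes in which leukocyte genes (orange circles) or structural genes (green diamonds) prevailed, 1 point per library, d for day. Ties stand with the leukocyte barcodes. In this division, by gene lists, Fn1 fell in leukocyte and rose in structural barcodes between day 1 and day 3, Mcm3 did the opposite, and Isg15, Apoe and Mki67 rose in both.

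Other day effects differed between leukocyte and structural barcodes, and of all 16869 genes tested for such a difference 24.4% had the higher value in leukocyte barcodes and 10.7% the lower. Among 19 interferon genes, the day effect was higher in leukocyte barcodes for 15 and lower for 0, and 1 of the 15, Ifitm3, was called in neither set. In structural barcodes themselves 16 of the 19 were higher and 0 lower, where 13.6% of all genes were higher. Ifit2 was 1 of the 3 not called there, and its difference was far above the list median of 1.14. It was at 14.7 and 11.5 CPM in structural barcodes on day 1 and 12.8 and 19.2 CPM on day 3, with overlapping days. Its difference from leukocyte barcodes was 4.78 (SE 0.25, adjusted p = 2.4e-06). Isg15 rose in both sets, by 2.16 and 1.70, with a difference of 0.50 (SE 0.15, adjusted p = 0.027). The day effect on glycolysis and hypoxia genes was lower in leukocyte barcodes for 15 of 23 and higher for 2. Pkm went from 947 and 803 to 299 and 290 CPM in leukocyte barcodes and from 621 and 550 to 738 and 677 CPM in structural barcodes, a difference of -1.84 (SE 0.10, adjusted p = 3e-06). Genes of the circadian clock were lower in 10 of 19 and higher in 0 in structural barcodes, and 11 of 19 had the higher day effect in leukocyte barcodes and 2 the lower. Apoe rose in both sets, from 1987 and 3645 to 21454 and 23400 CPM in leukocyte barcodes and from 199 and 295 to 612 and 803 CPM in structural barcodes. How much of the levels of Apoe, Isg15 and the other interferon genes in structural barcodes was carried over from leukocytes was not tested.

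**Figure D5:**
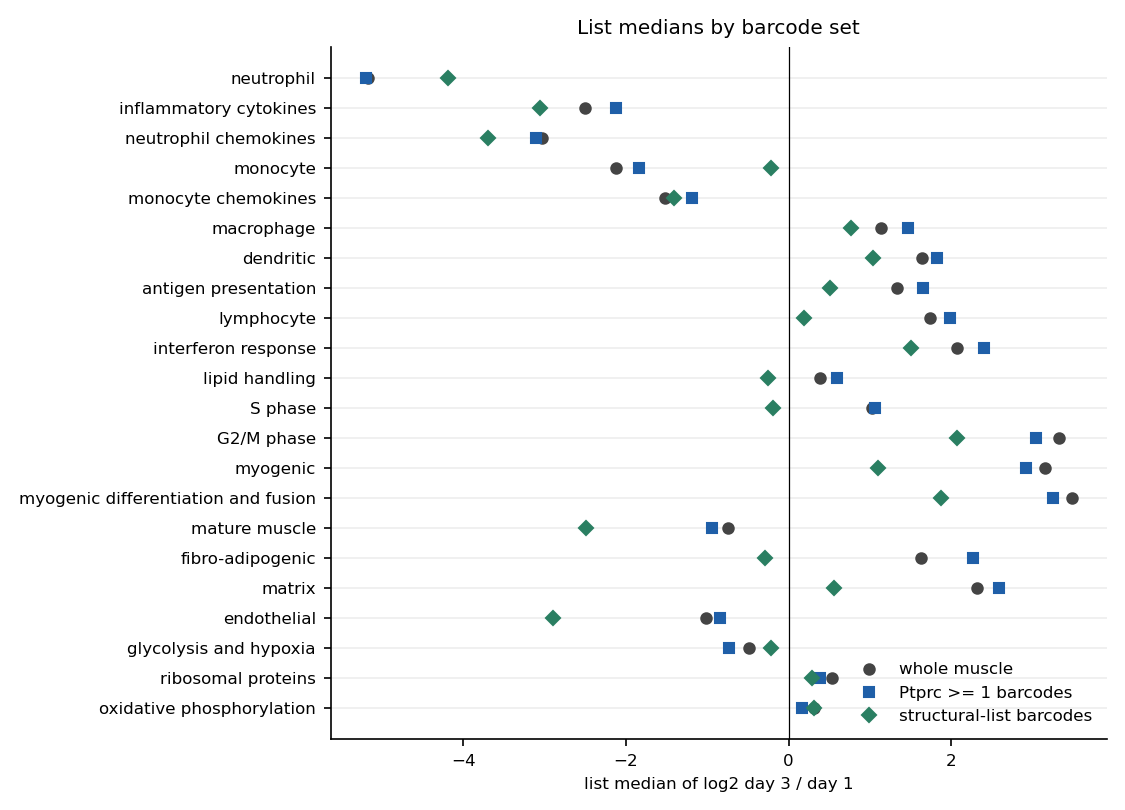
List medians of the log2 change from day 1 to day 3 in whole muscle (circles), in barcodes with Ptprc (squares) and in barcodes in which structural genes prevailed (diamonds); genes with 0 UMIs on 1 day stand at their bound, and the lists include genes that chose the structural barcodes. The medians of S phase, fibro-adipogenic and lipid-handling genes are above 0 in whole muscle and below 0 in structural barcodes. The median of all genes is itself 0.25 in whole muscle and -0.084 in structural barcodes. Medians of neutrophil, cytokine and chemokine genes are below 0 in all 3.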

How the data were processed

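Per the file headers and the submitters' processing notes, the authors made the deposited count matrices (UMIs per gene and barcode) with Cell Ranger against mm10. The header gives version 6.1.2 and the notes give 1.0.0. The deposited barcodes of day 1 numbered 11235 and 11493 and those of day 3 9930 and 8626. Each library is 1 sample, and cells are not replicates.

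UMI counts of kept barcodes were summed per library with Python 3.11.15, numpy 2.4.6 and scipy 1.17.1. Day 3 was tested against day 1 with edgeR 4.0.16 (R 4.3.3), quasi-likelihood, on library totals, with filterByExpr and Benjamini-Hochberg adjustment over all genes tested; all adjusted p-values of differences in expression come from it. The difference of day effects between barcode sets was tested in 1 fit with the library as a block. DESeq2 1.42.0 was an alternative. A standard error is the log2 change divided by the square root of F. In simulated counts for 16481 genes, 200 were changed, equally up and down, with the spread taken from the fitted trend. On these the whole-muscle test recovered 62% of 2-fold and 92% of 4-fold changes, with 7 false calls. In the data far more genes were called, most of them higher, so these rates need not hold there.

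Doublets were kept. As an alternative, the barcodes with the highest scrublet scores (scanpy 1.11.5), 0.8% per 1000 barcodes, were left out; the caller's own threshold marked 0, 356, 1 and 2 barcodes. Other alternatives were TMM, no count filter, a minimum of 5 CPM, thinning to 1000 UMIs, mitochondrial limits of 5% and none, at least 2 Ptprc UMIs, division by gene lists, all 6 libraries in 1 fit, collection time as a block and leaving out each library.

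Named were genes with the largest fold change among those called, with a mean of at least 50 CPM on the higher day and days that did not overlap (12 each way in whole muscle, 6 in each barcode set), and the 4 members of each list with the highest mean CPM. Genes outside this rule, and those given below the minimum level in a barcode set, were chosen after their values were seen. The comparison, members and lists were chosen with earlier results of these data known. Coordinates are from GENCODE vM21 (GRCm38).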

Additional observations from a re-analysis of the deposited data

Results flagged for a closer look

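For 22 of the leading genes the change from day 1 to day 3 differed between barcodes with and without Ptprc, by edgeR's test of the difference. The values that follow are the log2 change in Ptprc barcodes minus that in Ptprc-zero barcodes. Among genes that rose in whole muscle or in a set, it was 2.72 for Myog, 2.67 for Sfrp2, 1.43 for Mest, 1.35 for Peg3, 1.85 for Postn and 1.85 for Col1a1. The values of Myog and Sfrp2 rest on day 1 levels in Ptprc barcodes near the floor of 3 UMIs. Among the other genes that rose, the values were as follows. It was 3.07 for Calhm6, 2.85 for Pltp, 3.85 for Iigp1, 3.63 for Ifit2 and 1.86 for Gpr34. Among genes that fell, it was 2.49 for Arg1, 2.48 for S100a9, 2.15 for S100a8, 2.11 for Acod1, 3.01 for Stfa2l1, 1.16 for Cxcr2, 2.73 for Retnlg, 2.24 for Trem1 and 3.22 for Cstdc4. It was -1.55 for Lcn2 and -4.01 for Lrg1. The values of Stfa2l1, Retnlg and Cstdc4 rest on day 3 levels in Ptprc-zero barcodes near or under the floor of 3 UMIs. With barcodes divided by leukocyte against structural genes instead, 14 of the 22 differences passed with the same sign. That of Arg1 was -1.05, the opposite sign (adjusted p = 0.031). Those of Myog, Sfrp2, S100a8, Cxcr2, Trem1, Gpr34 and Cstdc4 did not pass (adjusted p of 0.11, 0.40, 0.056, 0.22, 0.17, 0.32 and 0.12).

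In 5 of the named genes the ZT4 and the ZT16 pair of libraries moved in opposite directions, a difference that was not tested. Their log2 changes at ZT16 were -0.81 for Fabp4, -0.34 for Gsn, -0.20 for Cxcr4, 0.55 for Ifitm3 and -0.14 for Pcna.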

How the results depend on the processing

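Counts of genes higher or lower moved by over 1.5 times in these cases. With a minimum of 5 CPM, which tests fewer genes, 2862 were higher in whole muscle and 2356 in Ptprc barcodes. DESeq2 called 3770 lower in whole muscle. In Ptprc-zero barcodes 1960 were higher with division by gene lists and 1579 lower after thinning. The test of the difference between sets gave 1860 and 500 after thinning. The share of barcodes in the immune set changed by -11.3 points after thinning and by -9.14 by gene lists, and the share of UMIs by -11.3 and -22.3. Leaving out each library gave 3481 to 6430 higher and 1160 to 2962 lower in whole muscle, and 2743 to 5067 and 1074 to 2834 in Ptprc barcodes. With collection time as a replicate block 5725 were higher and 2284 lower in whole muscle. The ZT16 minus ZT4 differences of the 2 days correlated at 0.025 across genes, so collection time was not used to pair libraries.

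List medians changed sign for repair genes (-0.10 under TMM; -0.068 to 0.13 without a library), heat shock genes (-0.14 under TMM; -0.071 to 0.42), matrix proteases (0.12 after thinning), mast cell genes (-0.71 to 2.01) and mural genes (-0.39 to 0.35). The medians of glucocorticoid-response genes (0.033) and mural genes (0.0077) also changed sign under TMM, to -0.17 and -0.19. After thinning the log2 change was 0.41 for Ccr2, 0.30 for Fabp4 and -0.60 for Cxcr4. Under TMM and DESeq2 it was -0.19 and -0.24 for Cxcr4, -0.093 and -0.14 for Ifitm3, and -0.089 and -0.13 for Pcna. Leaving out each library gave -0.70 to 0.23 for Fabp4, -0.34 to 0.0093 for Gsn, -0.24 to 0.31 for Cxcr4, -0.10 to 0.38 for Ifitm3 and -0.11 to 0.38 for Pcna. The cause was not tested. The 4 libraries differ in depth, and a share of barcodes with a UMI depends on it.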
